A study of Mus musculus with 18 samples.

Results

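Expression of 7 genes grouped under thymic egress and lymph node homing was followed in regulatory T cells (Tregs) with and without CD25. CD25 is the alpha chain of the IL-2 receptor, encoded by *Il2ra*. The genes were *S1pr1*, *S1pr4*, *Cd69*, *Klf2*, *Klf3*, *Klf6* and *Ccr7*, chosen by name, and they are 7 of the 50600 genes in the deposited count table. Their roles differ, and not all of them promote egress or homing. All 7 passed the filter on low counts in every comparison.

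The question was how loss of CD25 from Tregs changes their transcripts in the thymus and in the spleen. RNA-seq was performed on FACS-purified Foxp3+ Tregs of 18 C57BL/6 mice. Thymic CD25 KO Tregs came from 5 mice with floxed CD25 alleles and Foxp3-YFP/Cre, "cured" of autoimmunity by injecting WT splenocytes into newborns, and WT thymic Tregs came from 5 Foxp3/RFP reporter mice with intact CD25. Both thymic groups were 3 to 4 weeks old. Splenic CD25 KO Tregs came from 4 mice with floxed CD25, Foxp3eGFP-Cre-ERT2 and the R26Y reporter, and splenic WT Tregs from 4 reporter controls with intact CD25. Both splenic groups were 7 to 10 weeks old when given tamoxifen, and were sorted 10 to 14 days after induction. Cre was expressed from the *Foxp3* locus in both models, constitutively in the thymic model and under control of tamoxifen in the splenic one. The thymic groups carried different *Foxp3* reporter alleles, and the cured mice alone had received donor cells. These features cannot be told apart from CD25 loss in the thymus. Nothing in the labels says how many litters or sorting days the mice came from, so p-values measure the spread between these mice.

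Mature thymocytes leave the thymus toward sphingosine-1-phosphate (S1P), which is abundant in blood and scarce in tissue. The receptor S1PR1 reads this gradient, and the membrane protein CD69, induced on activation, binds S1PR1 and draws it inside the cell. KLF2 is a transcription factor of quiescent and mature T cells that activates *S1pr1*, and the factor FOXO1 acts upstream of *Klf2* and *Ccr7*. CCR7 is the chemokine receptor that guides developing thymocytes into the medulla and brings circulating T cells into lymph nodes.

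The genes lie on 7 chromosomes of GRCm38. *S1pr1* (ENSMUSG00000045092.8) is at chr3:115710433-115715072 and *S1pr4* (ENSMUSG00000044199.6) at chr10:81497747-81500132, both on the minus strand. *Cd69* (ENSMUSG00000030156.5) is at chr6:129267325-129275436 and *Ccr7* (ENSMUSG00000037944.8) at chr11:99144196-99155077, also on the minus strand. *Klf2* (ENSMUSG00000055148.7) is at chr8:72319033-72321656, *Klf3* (ENSMUSG00000029178.14) at chr5:64803388-64832901 and *Klf6* (ENSMUSG00000000078.6) at chr13:5861482-5870394, on the plus strand. *Klf3* overlaps 2 other annotated genes, *Gm20033* on the opposite strand and *C230096K16Rik* on the same strand, so its counts may be divided with them. All 7 are protein-coding, and the counts cover their exons, untranslated regions included.

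The promoter of *Klf2* is shown because *Klf2* was the gene of this set that differed in the thymus, and because MEF2 factors, which bind AT-rich sites, are among its known activators. The sequence is from RefSeq (GRCm38.p6), chr8:72318812-72319032 on the plus strand, and ends 1 base before the start of the gene in the annotation. Capitals mark the match to the MEF2 motif, searched as CTA and TAG with any 4 bases between, which reads the same on both strands.
Klf2: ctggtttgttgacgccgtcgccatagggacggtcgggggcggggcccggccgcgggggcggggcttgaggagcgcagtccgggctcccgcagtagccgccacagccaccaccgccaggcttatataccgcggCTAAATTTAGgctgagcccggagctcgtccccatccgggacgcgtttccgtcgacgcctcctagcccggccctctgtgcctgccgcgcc
The match began 118 bases before the RefSeq transcription start, which lies past the end of the bases shown. It was found in 1052 of 32851 promoters when the 250 bases before each start were searched, or 3.20%. Promoters of 4 of the 7 genes could be matched (*Klf2*, *Klf3*, *Klf6* and *S1pr4*), and the MEF2 motif was in none of the other 3. On either strand, neither GTAAACA, a FOXO motif held by 3.17% of promoters, nor TTCNNNGAA, a STAT5 motif held by 7.02%, was in any of the 4 windows. CCACCC, a KLF motif held by 28.1%, was present 3 times in *Klf3*, once in *Klf2* and once in *S1pr4*. The *Klf2* match to CCACCC is not within the bases shown, since the window searched ran on to chr8:72319061. These matches describe letters in a window, and binding was not measured.

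Thymic libraries held 17239774 to 23993674 counts and splenic libraries 25258341 to 32639570, so that 3 counts corresponded to at most 0.163 CPM (counts scaled to a common library size, with TMM factors). All 7 Treg markers examined, *Foxp3* among them, were above 1 CPM in all 4 groups, but several differed by genotype. At FDR < 0.01 (edgeR), 4 of the 7 were lower in thymic CD25 KO Tregs and none higher, beside 6.16% of all genes passing. In the spleen 3 were higher and 2 lower, beside 9.45% of all genes passing. *Cd3e* was lower in the thymus (log2 fold change -0.43) and higher in the spleen (0.24). *Il2ra* was 524 to 682 CPM in thymic WT mice and 488 to 538 CPM in splenic WT mice. It was 105, 279.7, 96.1, 234 and 95.8 CPM in the thymic CD25 KO mice 1 to 5 and 168 to 208 CPM in the splenic CD25 KO mice. All CD25 KO mice were below all WT mice of their tissue, and thymic CD25 KO mice 2 and 4 were above the other 3. The counts cover the whole gene, including exons that were not deleted. *Foxp3* was also lower in CD25 KO Tregs, with a thymic log2 fold change of -0.74 and a splenic one of -0.55. The annotated gene *Gm26917* took 94359 to 154541 CPM in WT libraries and 55958 to 109165 CPM in CD25 KO libraries, and TMM scaling was used to limit its weight. Thymic log2 fold changes were lower for genes of higher GC content (Spearman correlation -0.40 across 16945 genes, not independent of each other), and splenic ones less so (-0.17 across 17423 genes).

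Among the 7 genes, *Klf2* was lower in thymic CD25 KO Tregs and *Ccr7* was lower in splenic CD25 KO Tregs, and the other 5 were not called in either tissue. A gene is called differentially expressed (DE) at FDR < 0.01, by the quasi-likelihood test of edgeR with p-values adjusted after Benjamini and Hochberg over all genes tested. In the thymus 1 of 7 was DE beside 6.16% of the 16986 genes tested, with 2.99% lower, and in the spleen 1 of 7 beside 9.45% of 17463, with 3.55% lower. With 7 genes, 1 call is about what these shares give, and the results are about single genes. Levels are CPM on TMM-scaled totals, given as mean ± SD over mice.

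**Figure D1:**
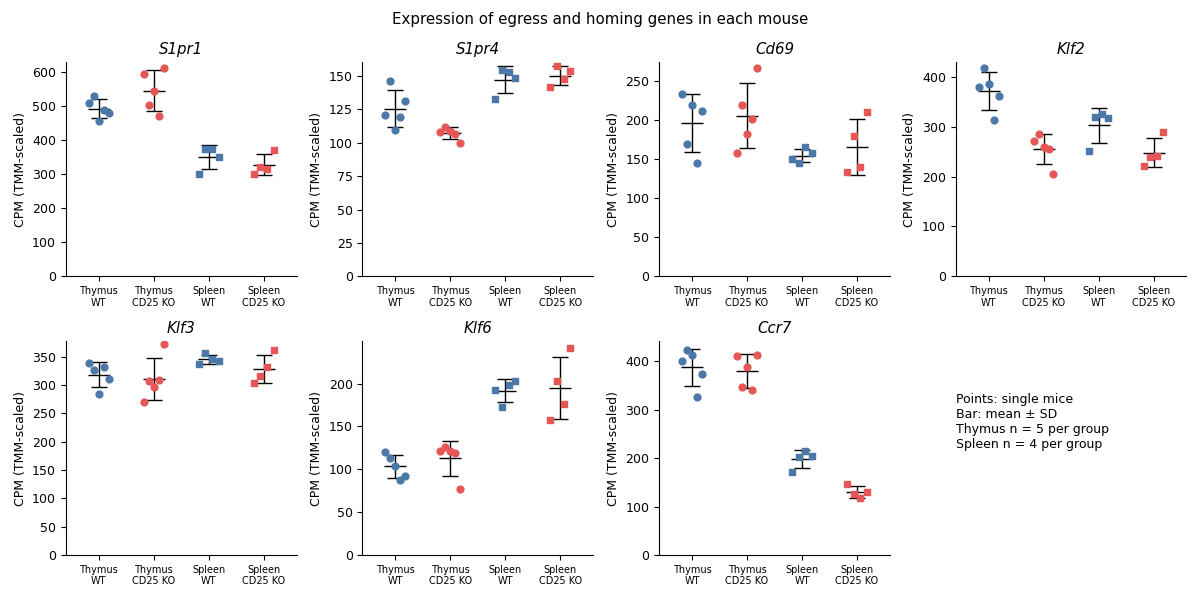
Expression of the 7 genes in each mouse, in CPM scaled by TMM on linear axes that start at 0. Points are single mice (5 per thymic group, 4 per splenic group) and bars are mean ± SD. *Klf2* points of thymic CD25 KO mice lie below those of thymic WT mice, and *Ccr7* points of splenic CD25 KO mice lie below those of splenic WT mice.

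*Klf2* encodes the transcription factor that activates *S1pr1* in maturing thymocytes. Its level in thymic WT Tregs was 379.8, 419, 386, 313 and 362 CPM in mice 1 to 5 (372 ± 38.7, SD, n = 5). In thymic CD25 KO Tregs it was 271, 285, 260.0, 255 and 206 CPM (255 ± 30.1, SD, n = 5). The highest CD25 KO mouse was below the lowest WT mouse. Of all genes tested in the thymus, 16.4% had no overlap between the groups, and 9.17% were lower in CD25 KO with no overlap. *Klf2* was 1.44-fold lower, with a log2 fold change of -0.53 (SE 0.0903, edgeR adjusted p = 0.00354). The call was close to the threshold: it was lost without thymic WT mouse 2 (adjusted p = 0.0117), WT mouse 3 (0.0108), WT mouse 5 (0.0100) or CD25 KO mouse 3 (0.0106), with log2 fold changes of -0.58 to -0.46 when each mouse in turn was left out. Without CD25 KO mice 2 and 4, which had the most *Il2ra*, the log2 fold change was -0.59 (adjusted p = 0.00247), an alternative chosen after seeing the data. *Klf2* is GC-rich, with 61.6% GC, and after a correction for GC content its log2 fold change was -0.35 (adjusted p = 0.00573).

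In the spleen, *Klf2* was 251, 319.6, 326 and 318 CPM in WT mice 1 to 4 (304 ± 35.2, SD, n = 4). It was 221, 239, 241 and 289 CPM in CD25 KO mice (248 ± 29.1, SD, n = 4). WT mouse 1 lay among the CD25 KO mice and CD25 KO mouse 4 was the highest of its group, so the groups overlapped. The log2 fold change was -0.29 (SE 0.0862, edgeR adjusted p = 0.0286), which did not pass the threshold. It passed without WT mouse 1 (-0.38, adjusted p = 0.00267), without CD25 KO mouse 4 (-0.38, 0.00471), and when no filter on low counts was applied (-0.29, 0.000198). The difference between the splenic and the thymic effect was 0.25 (SE 0.142, adjusted p = 0.235), so a smaller decrease in the spleen was not shown.

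CCR7 directs T cells toward lymph nodes and the thymic medulla. *Ccr7* was 172, 202, 214 and 204 CPM in splenic WT Tregs (198 ± 18.3, SD, n = 4). In splenic CD25 KO Tregs it was 146, 125.5, 118 and 131 CPM (130.0 ± 11.8, SD, n = 4). All 4 CD25 KO mice were below all 4 WT mice, a separation in this direction seen for 9.21% of the genes tested in the spleen, and 20.4% had no overlap in either direction. *Ccr7* was 1.52-fold lower, with a log2 fold change of -0.60 (SE 0.0729, edgeR adjusted p = 3.49e-05). The call held under every alternative run for the splenic comparison, and leaving out each mouse in turn gave -0.67 to -0.56.

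In the thymus, *Ccr7* was 399.8, 422, 413, 327 and 374 CPM in WT mice (387 ± 38.4, SD, n = 5). It was 411, 346, 388, 340.4 and 413 CPM in CD25 KO mice (379.7 ± 34.6, SD, n = 5). The groups overlapped over most of their range, and the log2 fold change was -0.01 (SE 0.0776, edgeR adjusted p = 0.923). Spleen minus thymus, the effect of CD25 KO differed by -0.58 (SE 0.120, adjusted p = 0.00285). *Ccr7* was the 1 gene of the 7 with a DE difference between tissues, beside 6.98% of the 18686 genes tested.

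**Figure D2:**
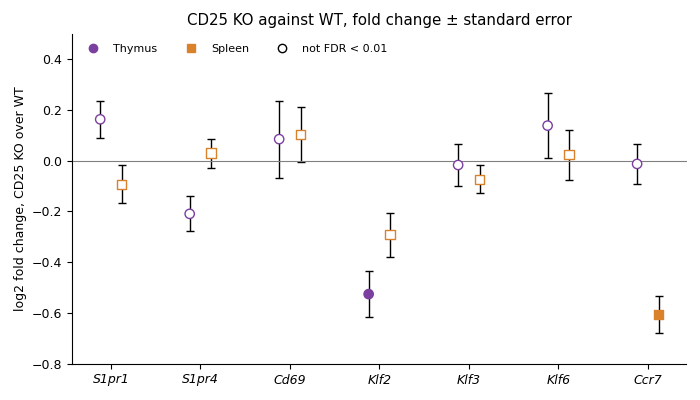
Log2 fold change of CD25 KO over WT for the 7 genes, with standard errors, in thymic Tregs (circles) and splenic Tregs (squares), where filled symbols passed FDR < 0.01. The filled symbols are *Klf2* in the thymus at -0.53 and *Ccr7* in the spleen at -0.60.

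S1PR1 is the receptor that T cells need to leave the thymus and lymph nodes. *S1pr1* was 510.5, 531, 456, 489 and 479 CPM in thymic WT mice (493 ± 28.9, SD, n = 5). It was 595, 505, 545, 472 and 613 CPM in thymic CD25 KO mice (546 ± 59.4, SD, n = 5). CD25 KO mice 1, 3 and 5 were above all WT mice and mice 2 and 4 were within their range. The log2 fold change was 0.16 (SE 0.0730, edgeR adjusted p = 0.122). Without CD25 KO mice 2 and 4, which also had the most *Il2ra*, it was 0.26 (adjusted p = 0.0164), still short of the threshold. In the spleen *S1pr1* was 299, 374, 375 and 350.1 CPM in WT mice and 302, 320.4, 316 and 372 CPM in CD25 KO mice. These ranges were nearly the same, with a log2 fold change of -0.09 (SE 0.0755, adjusted p = 0.447).

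S1PR4 is an S1P receptor of blood and lymphoid cells. *S1pr4* was 121, 146, 109.7, 119 and 132 CPM in thymic WT mice and 108, 112, 109, 107 and 99.7 CPM in thymic CD25 KO mice. All CD25 KO mice but mouse 2 were below the lowest WT mouse. The log2 fold change of -0.21 (SE 0.0688) did not pass the threshold (edgeR adjusted p = 0.0450), and it was -0.03 after correction for GC content. In the spleen *S1pr4* was 133 to 155 CPM in WT mice and 142 to 157 CPM in CD25 KO mice, with a log2 fold change of 0.03 (SE 0.0569, adjusted p = 0.773).

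CD69 protein opposes S1PR1 at the cell surface. *Cd69* was 233, 169, 219, 145 and 212 CPM in thymic WT mice and 158, 219, 181, 201 and 267 CPM in thymic CD25 KO mice. The spread was wide in both groups, with coefficients of variation of 18.96% and 20.1%, and the log2 fold change was 0.09 (SE 0.152, edgeR adjusted p = 0.717). *Cd69* has a low GC content of 35.9%, and correction for GC content gave -0.35 (adjusted p = 0.0896), so that no direction can be given. In the spleen it was 149.8, 145, 165 and 158 CPM in WT mice and 134, 179, 139.6 and 209 CPM in CD25 KO mice (log2 fold change 0.10, SE 0.108, adjusted p = 0.570).

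KLF3 is mostly known as a repressor that shares binding sites with other KLF factors, and KLF6 is a widely expressed member induced early by many stimuli. *Klf3* was 284 to 339.8 CPM in thymic WT, 270.0 to 372 CPM in thymic CD25 KO, 337 to 356 CPM in splenic WT and 303 to 361 CPM in splenic CD25 KO mice. Its log2 fold change was -0.02 (SE 0.0829, edgeR adjusted p = 0.902) in the thymus, and -0.07 (SE 0.0560, adjusted p = 0.418) was measured in the spleen. *Klf6* was 120.0, 113, 104, 87.8 and 92.6 CPM in thymic WT mice and 121, 125.7, 122, 119 and 76.5 CPM in thymic CD25 KO mice. CD25 KO mice 1 to 3 were above the highest WT mouse, mouse 4 was within the WT range and mouse 5 was below all WT mice. The log2 fold change was 0.14 (SE 0.128, edgeR adjusted p = 0.455), and in the spleen it was 0.02 (SE 0.0986, adjusted p = 0.904).

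A ratio of 2 genes in 1 library does not depend on how libraries are scaled. The ratio of *Klf2* to *Klf6* counts was 3.16, 3.69, 3.70, 3.57 and 3.91 in thymic WT mice and 2.24, 2.27, 2.13, 2.15 and 2.69 in thymic CD25 KO mice. All CD25 KO mice were below all WT mice. In the spleen the ratio was 1.30, 1.85, 1.64 and 1.57 in WT and 1.41, 1.18, 1.36 and 1.20 in CD25 KO mice, which overlapped. The ratio of *S1pr1* to *Cd69* counts was 2.08 to 3.38 in thymic WT and 2.30 to 3.77 in thymic CD25 KO mice. Both are RNA counts, and S1PR1 and CD69 protein at the cell surface was not measured. The same ratio was 2.00 to 2.58 in splenic WT and 1.77 to 2.26 in splenic CD25 KO mice, and the genotypes overlapped in both tissues. No test was made on these ratios, and genes that differ in length and GC content contribute unequally to them. *Klf2* has 61.6% GC and *Klf6* 42.4%, so their ratio is exposed to the thymic trend with GC content. After correction for GC content the thymic log2 fold change was -0.35 for *Klf2* and -0.014 for *Klf6*.

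**Figure D3:**
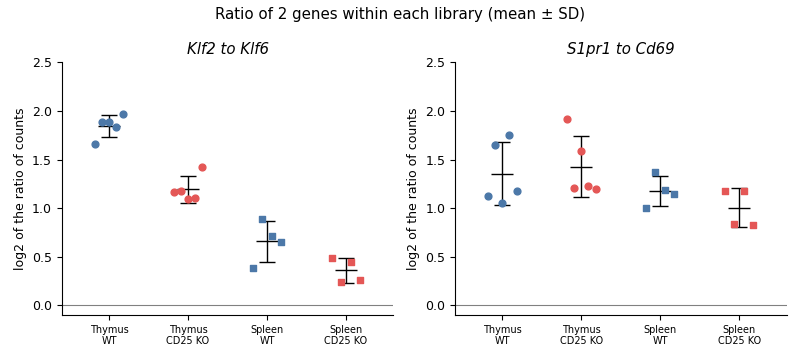
Log2 ratio of *Klf2* to *Klf6* counts and of *S1pr1* to *Cd69* counts in each mouse by group, with mean ± SD. The ratio of *Klf2* to *Klf6* separates thymic CD25 KO from thymic WT mice, and the ratio of *S1pr1* to *Cd69* overlaps between genotypes in both tissues.

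Between the WT groups, 4 of the 7 genes were DE, beside 40.4% of the 18686 genes tested, and tissue, age, tamoxifen, reporter allele and the date in the column headers, 1 for each tissue, cannot be told apart here. *Ccr7* was 1.96-fold lower in splenic than in thymic WT Tregs (log2 fold change -0.97, SE 0.0864, edgeR adjusted p = 1.12e-08), and *S1pr1* was 1.41-fold lower (-0.50, SE 0.0841, adjusted p = 5.33e-05). *Klf6* was 1.85-fold higher in the spleen (0.89, SE 0.131, adjusted p = 1.04e-05). For these 3 genes no mouse of one WT group was within the range of the other, as for 46.0% of all genes. *S1pr4* was higher in the spleen (0.23, SE 0.0688, adjusted p = 0.00780) but the WT ranges overlapped, and the call was lost in 19 of 26 alternatives, with adjusted p up to 0.0585. *Klf2* (-0.29, adjusted p = 0.0195), *Cd69* (-0.34, 0.0644) and *Klf3* (0.12, 0.197) were not DE.

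Ordered by mean level, *Ccr7* rose from splenic CD25 KO to splenic WT to thymic CD25 KO to thymic WT Tregs, and only the 2 thymic groups overlapped as neighbours. For *S1pr1* the order was splenic CD25 KO, splenic WT, thymic WT and thymic CD25 KO, with a gap without overlap between splenic and thymic WT. *Klf2* ran from splenic CD25 KO through thymic CD25 KO and splenic WT to thymic WT, and each neighbour overlapped the next. Per kilobase of exon, *Klf2* and *Ccr7* were highest in thymic WT Tregs, at 201 and 196 CPM per kb, followed by *S1pr1* at 162. *S1pr4* was at 52.6, *Cd69* at 30.1, *Klf3* at 28.3 and *Klf6* at 23.6 CPM per kb. Lengths are of all annotated exons joined, so the level of a gene with many transcripts such as *Klf3* is understated. In splenic WT Tregs *Ccr7* was at 100.1 CPM per kb, already below *Klf2* at 164 and *S1pr1* at 115. In splenic CD25 KO Tregs the order was the same, with *Ccr7* at 65.7, *Klf2* at 134 and *S1pr1* at 108 CPM per kb.

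The other S1P receptors were examined as a list of 5. *S1pr3* and *S1pr5* were at most 0.137 CPM on average in every group and did not pass the filter. *S1pr2*, a receptor that restrains migration toward S1P, was 20.7 ± 0.477 CPM in splenic WT and 31.1 ± 2.42 CPM in splenic CD25 KO Tregs (log2 fold change 0.59, edgeR adjusted p = 2.72e-05). In the thymus it was 8.28 ± 0.347 CPM in WT against 6.44 ± 0.833 CPM in CD25 KO Tregs (-0.35, adjusted p = 0.0364, not DE), and the difference between tissues was 0.95 (adjusted p = 2.94e-05). Of 8 tested genes that make, export or break down S1P, *Sgpp2*, an S1P phosphatase, was higher in thymic CD25 KO Tregs (0.82, adjusted p = 0.00280), and none was DE in the spleen. Of 18 genes of receptor coupling and motility, *Rgs1*, which dampens signaling of chemokine receptors, was lower in the thymus (-0.77, adjusted p = 0.00497). In the spleen *Rgs16* was higher (0.67), and *Rgs10* (-0.30), *Arrb1* (-0.24) and *Rgs14* (-0.23) were lower. Over all genes tested, 6.16% were DE in the thymus and 9.45% in the spleen. Of fits that left out a mouse, the call of *Rgs1* was lost in 6 of 10, and those of *Rgs10*, *Arrb1* and *Rgs14* in 2, 5 and 6 of 8.

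Of the KLF family, 12 of 17 genes could be tested, and 3 were DE in the thymus, beside 6.16% of all genes, and 2 in the spleen, beside 9.45%. In the thymus *Klf9* was lower (log2 fold change -1.01, edgeR adjusted p = 0.00503) together with *Klf2*, and *Klf7* was higher (0.39, adjusted p = 0.00485). In the spleen *Klf7* was lower (-0.28, adjusted p = 0.00860), opposite to the thymus, and the difference between tissues was -0.66 (adjusted p = 0.000374). *Klf12* was higher in the spleen (1.10, adjusted p = 0.000444) at a low level of 2.50 CPM (WT) and 5.37 CPM (CD25 KO). Over the tested KLF genes the median log2 fold change was -0.05 (thymus) and -0.03 (spleen), beside -0.0022 and -0.0065 over all genes tested. The thymic call of *Klf7* was lost after correction for GC content (adjusted p = 0.0102), and that of *Klf9* without CD25 KO mice 2 and 4. With mice left out in turn, the thymic calls of *Klf7* and *Klf9* were each lost in 4 of 10 fits and the splenic call of *Klf7* in 6 of 8.

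Among known regulators of *Klf2*, *Mef2a*, which encodes a factor that binds the MEF2 motif, was higher in thymic CD25 KO Tregs, where *Klf2* was lower. In thymic Tregs it was 109.2 ± 14.97 CPM (WT) and 159 ± 17.9 CPM (CD25 KO) (log2 fold change 0.56, edgeR adjusted p = 0.00466). In splenic Tregs it was 74.1 ± 5.95 CPM (WT) and 68.9 ± 5.05 CPM (CD25 KO), with a log2 fold change of -0.10 (adjusted p = 0.329), and the difference between tissues was -0.65 (adjusted p = 0.00287). *Foxo1* was lower in splenic CD25 KO Tregs (-0.24, adjusted p = 0.00451), as was *Pik3ip1*, which encodes an inhibitor of PI3K (-0.37, adjusted p = 0.000820). In the thymus these were 0.12 and 0.06 and were not DE, and the differences between tissues were not DE either (adjusted p = 0.0606 and 0.0584). The calls of *Mef2a* and *Foxo1* were lost in 4 of 10 and 6 of 8 fits that left out a mouse, and that of *Pik3ip1* in none of 8. The remaining regulators tested were not DE.

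**Figure D4:**
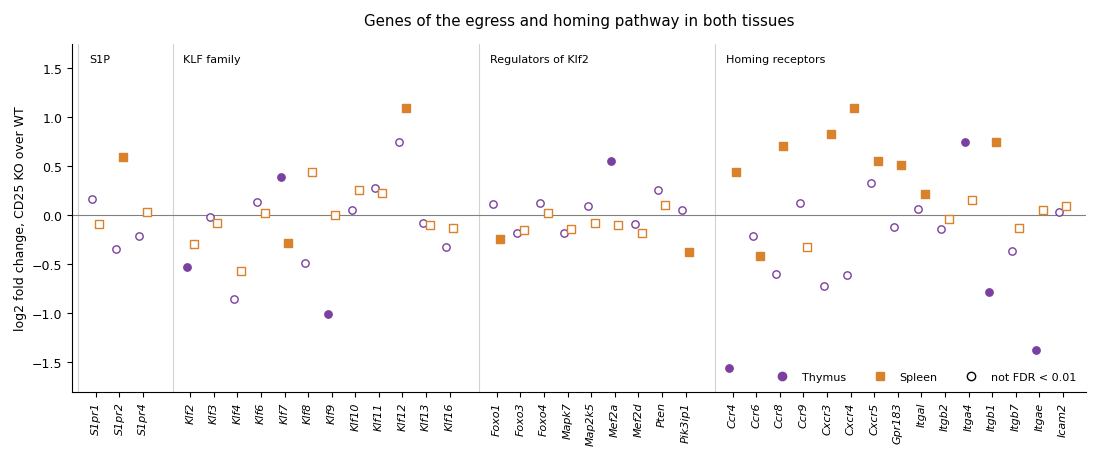
Log2 fold change of CD25 KO over WT in thymic (circles) and splenic (squares) Tregs for S1P receptors, KLF genes, regulators of *Klf2* and homing receptors, for genes shown of those tested in both tissues. Filled symbols passed FDR < 0.01, and *Klf7*, *Ccr4* and *Itgb1* have filled symbols of opposite sign in the 2 tissues.

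Of 16 homing receptors other than *Ccr7* tested in the spleen, 8 rose and 2 fell with CD25 KO, beside 9.45% DE over all genes, with a median log2 fold change of 0.19. *Cxcr4* (1.10), *Cxcr3* (0.83) and *Itgb1* (0.74) were among those that rose, and *Ccr6* (-0.41) was among those that fell. In the thymus 1 of 16 was higher, *Itga4* (0.75), and 3 were lower, *Ccr4* (-1.56), *Itgae* (-1.38) and *Itgb1* (-0.78), beside 6.16% DE over all genes, with a median of -0.20. For 7 of the 16 the difference between tissues was DE and positive, beside 6.98% DE over all genes, and for the other 9 it was not DE. With mice left out in turn, 6 to 8 of the 16 were called higher in the spleen and 1 to 2 lower. Among the lost calls, the splenic ones of *Ccr6* and *Ccr4* were lost in 4 and 2 of 8 fits and the thymic call of *Itgae* in 4 of 10.

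Genes of other Treg states moved with these results, and their part in them was not tested. In bulk RNA, fewer cells of a type cannot be told apart from less RNA of a gene in each cell. Of 10 genes of resting Tregs, *Ccr7* among them, 6 were lower in splenic CD25 KO Tregs, with *Ly6c1* at -1.30 and *Bcl2* at -1.01, 1 was higher (*Tcf7*, 0.24, a call lost in 7 of 8 fits that left out a mouse), and the median was -0.48. Over all genes tested in the spleen, 9.45% were DE and 3.55% were lower. In the thymus 1 of these 10, *Foxp1*, was higher (0.36), beside 6.16% DE over all genes, none was lower, and the median was -0.02. Of genes of Tregs that recirculate to the thymus, 7 of 12 tested were lower in thymic CD25 KO Tregs, beside 2.99% of all genes, and none higher (median -1.16), and 10 of 13 were higher and 1 lower in splenic CD25 KO Tregs (median 0.73). In the thymus *Klrg1* was 2.13 CPM (WT) and 0.00921 CPM (CD25 KO), *Il1rl1* 8.12 and 0.306 CPM, and *S100a4* 1.42 and 0.185 CPM. The CD25 KO values are low: 3 counts equal up to 0.163 CPM, so *Klrg1* lay below that level and *S100a4* near it. *Ccr6*, *Nt5e*, *Cd44*, *Gzmb* and *Ccr8* were not DE in the thymus. Of 8 genes of that list with at least 10 counts in every sample, 5 were lower, and the median was -0.62. With each thymic mouse left out in turn, 3 to 7 genes of that list were called lower and none higher, and the calls of *Il1r2* and *Icos* were lost in 8 and 7 of 10 fits. In splenic CD25 KO Tregs *Il10* was 12.8 CPM, against 3.15 CPM in WT.

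Of 16 genes of thymocyte maturation, 2 were lower in thymic CD25 KO Tregs, beside 2.99% of all genes. These were *Klf2*, itself 1 of the 7 genes followed, and *H2-Q6*, the latter uncertain because near-identical copies share its reads. A further list held immediate-early genes, which respond to cell handling and to stimulation, together with the heat shock genes *Hspa1a* and *Hspa1b* and the feedback inhibitor *Socs3*. Of 14 tested in the thymus, 4 were lower, beside 2.99% of all genes, and none was higher. These were *Hspa1a*, *Hspa1b*, *Socs3* (-0.80) and *Ier2* (-0.38), and *Hspa1b* was 11.01 ± 10.3 CPM in WT against 0.539 ± 0.131 CPM in CD25 KO Tregs. The other genes tested, *Fos*, *Jun* and *Egr1* among them, were not DE in the thymus. In the spleen 2 of 13 were higher, *Ier3* (1.18) and *Egr1* (0.59), beside 9.45% DE over all genes. Of 10 genes induced by the T cell receptor, *Myc* (-0.96) and *Irf4* (-0.81) were lower in the thymus, and in the spleen *Egr2* (0.65), *Egr1* and *Irf4* (0.40) were higher and *Myc* (-1.02) was lower. Of 10 genes of the type I interferon response, 1 was higher in the spleen, *Oas1a* (0.38). In fits that left out a mouse, the thymic calls of *Ier2*, *Irf4* and *Hspa1a* were lost in 8, 5 and 2 of 10, and the splenic calls of *Ier3*, *Irf4* and *Oas1a* in 7, 2 and 2 of 8. The call of *Ier2* was also lost after correction for GC content (-0.20, adjusted p = 0.0762), and that of *Ier3* with upper-quartile scaling.

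Markers of cells other than Tregs were summed in each mouse, and their part in the results was not tested. Summed levels of 6 B cell markers were 10.2 to 14.5 CPM in thymic and 20.1 to 23.97 CPM in splenic mice. Those of 8 myeloid markers were 11.1 to 35.9 CPM in thymic WT and 7.92 to 22.99 CPM in thymic CD25 KO mice, and 17.1 to 22.96 CPM in splenic WT and 23.3 to 29.8 CPM in splenic CD25 KO mice, which did not overlap in the spleen. Of these *Lyz2* was higher in splenic CD25 KO Tregs (log2 fold change 1.03, edgeR adjusted p = 0.00132). Immature double-positive thymocyte markers (8 genes) summed to 79.5 to 230 CPM (thymic WT) and 101 to 166 CPM (thymic CD25 KO), which overlapped. Their splenic sums were 36.5 to 42.5 CPM (WT) and 43.5 to 47.6 CPM (CD25 KO), which did not overlap. Most of the splenic sum was *Cd1d1*, with means of 29.3 (WT) and 34.7 CPM (CD25 KO). *Cd1d1* was not DE there (log2 fold change 0.25, edgeR adjusted p = 0.0224). *Rag1* had no count in splenic mice, and *Dntt* was lower in splenic CD25 KO Tregs (-0.73, adjusted p = 0.134, not DE). Markers of NK cells (6 genes) summed to 15.2 to 19.04 CPM in splenic WT and 41.8 to 56.5 CPM in splenic CD25 KO mice. *Nkg7* was 11.2 CPM in splenic WT and 34.6 CPM in splenic CD25 KO mice on average (1.64, adjusted p = 6.60e-07), *Klrb1c* 1.14 and 4.26 CPM (1.90, adjusted p = 0.00290), and *Eomes* 4.49 and 9.05 CPM (1.00, adjusted p = 0.0187, not DE), and the other 3 had no count in splenic CD25 KO mice. Endothelial markers (7 genes), nearly all *Pecam1*, which T cells also express, summed to 196 to 237 CPM in thymic mice of both genotypes, which overlapped, and to 169 to 188 CPM in splenic WT and 125.9 to 155 CPM in splenic CD25 KO mice, which did not. *Pecam1* was lower in splenic CD25 KO Tregs (-0.37, adjusted p = 0.000840), and its difference between tissues was DE (-0.42, adjusted p = 0.00418). Thymic epithelial markers (6 genes) summed to 6.50 to 12.8 CPM, and erythroid markers (6 genes) to 8.04 to 29.5 CPM in thymic WT and 0.157 to 35.1 CPM in thymic CD25 KO mice.

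The genes whose levels followed those of a member most closely were found over all 18 mice after the mean of each tissue was removed, among 12908 genes. They are descriptions, since the points share libraries, genotypes and depth. For *Klf2* they were *Noa1* (Pearson's r 0.95), *Mtss1* (0.93) and *Emp3* (0.93). For *Ccr7* they were *Grap2* (0.93), *Ifngr2* (0.93) and *Bach2* (0.91), and *Bach2* was itself DE in the spleen (-0.65). For *S1pr1* they were *Ripor2* (0.89), *Gm9889* (0.86) and *Ralgps2* (0.84), and for *Cd69* they were *Dhx15* (0.92), *Uchl5* (0.88) and *Eif2s2* (0.88). None of these 12 was among the 7 genes. Within the set, *S1pr4* and *Klf2* were the most alike (r = 0.72). With both tissues pooled, *S1pr1* and *Klf2* were near 0 (r = -0.06), which does not describe each tissue. In the spleen WT mouse 1 was the lowest of its group for both genes (299 and 251 CPM). Splenic CD25 KO mouse 4 was the highest for both (372 and 289 CPM). Thymic WT mouse 2 was also the highest for both (531 and 419 CPM). Thymic CD25 KO mouse 5 was the highest of its group for *S1pr1* (613 CPM) and the lowest for *Klf2* (206 CPM).

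**Figure D5:**
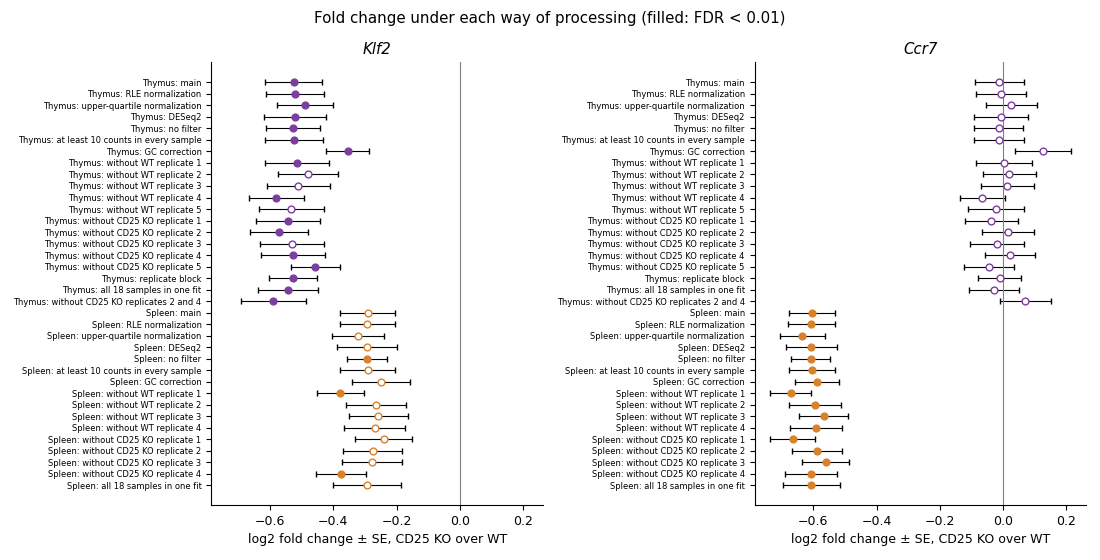
Log2 fold change of CD25 KO over WT with its standard error for *Klf2* and *Ccr7*, by the way of processing and with each mouse left out, where filled points passed FDR < 0.01. All *Klf2* values lie below 0, with the thymic call lost without 4 single mice, and splenic *Ccr7* lies between -0.67 and -0.56 with every point filled.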

How the data were processed

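Gene counts of FACS-purified Tregs were taken from the deposited table for 18 mice, with no column left out. The deposited values are raw counts, made by the authors with STAR (version 2.5.0b) on the mouse build GRCm38 and with featureCounts (1.5.0) on the genes of GENCODE M13. Whether the counting used strand is not given in the sources used here. Symbols, positions, GC content and exonic lengths were read from GENCODE M21 (also GRCm38), which named 50376 of the 50600 identifiers. Promoters came from RefSeq (GRCm38.p6).

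Samples were grouped by tissue and genotype from the labels. In R 4.3.3, CD25 KO was compared with WT in each tissue by edgeR 4.0.16 (filterByExpr, TMM, quasi-likelihood test, Benjamini-Hochberg adjustment, FDR < 0.01). The difference between tissues and the WT groups were tested in 1 fit of 18 samples with 4 groups. DESeq2 1.42.0, the tool named in the study's methods, was an alternative, with other scalings, filters, thresholds, a correction for GC content and the omission of each mouse. CPM levels were scaled by TMM over all 18 samples. Library totals set the precision, and 3 counts equal at most 0.163 CPM. Tested on simulated data with 200 changed genes, the fit called 93.0% of them in the thymus and 96.5% in the spleen. These shares apply only to changes of the sizes that were planted, and give no rate of detection for the genes followed here. No 2 libraries of a group held identical counts.

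The 7 genes and all lists were chosen with earlier results of these data known. All 7 genes are named. The values of 2 other list genes are not reported here, though the counts and medians of their lists include them. Of each list, the DE genes with the largest fold changes, at most 3 in each direction and tissue, are named, as are genes of the S1P receptor, KLF and *Klf2* regulator lists, and the 3 genes most alike in level to *Klf2*, *S1pr1*, *Ccr7* and *Cd69*.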

Additional observations from a re-analysis of the deposited data

Results flagged for a closer look

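Among 28 groups of a gene in a tissue and genotype, 2 held a mouse far from the others by Dixon's test at the 95% level, and chance gives about 1 such flag in 20 groups. *Klf2* was 251 CPM in splenic WT mouse 1, where the other 3 were 318 to 326 CPM. Without that mouse, splenic *Klf2* became DE. *Klf6* was 76.5 CPM in thymic CD25 KO mouse 5, where the other 4 were 119 to 125.7 CPM. The effect of CD25 KO on *Ccr7* differed between the tissues, by -0.58 on the log2 scale (spleen minus thymus, edgeR adjusted p = 0.00285), with every splenic CD25 KO mouse below every splenic WT mouse and the thymic groups overlapping. No cause was tested for these 3 results.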

How the results depend on the processing

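Of 637 values of the 7 genes under alternatives, 566 kept their direction and their side of the threshold, 26 lost and 12 gained a call, and 33 changed sign. All sign changes were of log2 fold changes that were not DE. With upper-quartile scaling the thymic values became 0.018 for *Klf3* and 0.026 for *Ccr7*, the splenic values -0.0011 for *S1pr4* and -0.0098 for *Klf6*, and the difference between tissues -0.049 for *Cd69*. With the correction for GC content the thymic values became 0.13 for *Ccr7*, -0.014 for *Klf6* and -0.35 for *Cd69*, and the splenic value -0.047 for *Klf6*. Without thymic CD25 KO mice 2 and 4, thymic *Ccr7* was 0.070. With each mouse left out, thymic values ranged from -0.088 to 0.034 for *Klf3*, -0.066 to 0.022 for *Ccr7* and -0.026 to 0.17 for *Cd69*. Splenic values ranged from -0.021 to 0.057 for *S1pr4*, -0.098 to 0.11 for *Klf6* and -0.031 to 0.19 for *Cd69*, and the difference between tissues from -0.11 to 0.15 for *Cd69* and -0.10 to 0.032 for *Klf3*. The cause was not tested.

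The number of DE genes in the thymus, 1047, was 2763 with DESeq2, 3951 at FDR < 0.05, 505 with a 1.5-fold minimum, 2881 with all 18 samples in 1 fit and 2008 without CD25 KO mice 2 and 4. It was 371 to 1087 with each mouse left out, and under 1047 by more than 1.5 times without WT mice 2, 3 or 5 or CD25 KO mice 1 or 3. The split was 539 higher and 508 lower, and 808 and 440 with upper-quartile scaling. In the spleen, 1651 became 3001 at FDR < 0.05, 773 with a 1.5-fold minimum and 795 in the fit of all samples, and 1099 to 1723 with each mouse left out. For the difference between tissues, 1305 became 2188 with DESeq2, 3149 at FDR < 0.05 and 2307 without CD25 KO mice 2 and 4, and 817 to 1489 with each mouse left out. Between WT groups, 7557 became 4689 with a 1.5-fold minimum, and 6690 to 8040 with each mouse left out. With that minimum the thymic call of *Klf2*, the difference of *Ccr7* between tissues and the calls of *S1pr1* and *S1pr4* between WT groups were lost, since each is under 1.5-fold.

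Thymic WT and CD25 KO mice share replicate numbers, but correlations of same-numbered mice were -0.24 to 0.14, and 1 of 5 was highest with its own number, so the numbers were not taken to pair mice. With the replicate block, 209 genes were DE in the thymus, *Klf2* among them (-0.53, adjusted p = 0.00860). The labels of the splenic groups share no numbers. Levels from plain library totals moved 2 of 28 group means beyond 1 SD, *S1pr4* in thymic CD25 KO to 112 CPM and *Klf3* in splenic WT to 329 CPM. Depth allowed all 7 genes to be measured well above the floor of 3 counts, and with 4 or 5 mice per group small changes could be missed.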
